A study of Zea mays with 18 samples.

Results

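Jasmonate is a plant hormone made from fatty acids. The genes described here belong by name to the enzyme families that build it, to the proteins that hold its signal in check or to those named after it. They were taken from a maize (Zea mays) stem expression table by their deposited protein descriptions, as every gene whose description held lipoxygenase, allene oxide, 12-oxophytodienoate, jasmonate, jasmonic or TIFY. This gave 38 of 34474 genes: 11 lipoxygenases, 4 allene oxide synthases, 2 allene oxide cyclases, 1 oxophytodienoate reductase, 1 jasmonate methyltransferase, 12 TIFY proteins and 7 genes otherwise named after jasmonate. The stems came from 3 hybrids with the common parent Dan 598, crossed to FAPW (low plant height), to CML444 (middle) or to ES40 (high). The stages were jointing, when the stem begins to elongate, big flare, late in the whorl, and tasseling, when the tassel emerges. That made 9 groups with 2 libraries each, called replicates here. Whether the replicates were separate plants is not in the labels, so the p-values below reflect differences between libraries that could be technical. With 1 hybrid per height class, plant height and genotype cannot be told apart.

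In the synthesis route, a 13-lipoxygenase oxidises linolenic acid in the plastid, allene oxide synthase and allene oxide cyclase turn the product into oxophytodienoic acid, and a reductase and peroxisomal beta-oxidation finish jasmonic acid. Lipoxygenases of the other class, the 9-lipoxygenases, feed other oxylipins and not jasmonate. JAR1 enzymes join jasmonic acid to isoleucine, the receptor COI1 binds the conjugate, and JAZ proteins, which carry a TIFY motif, are then degraded and release MYC transcription factors. Jasmonate is known for wound and insect defence and for restraining growth, and in maize it is needed for male identity in the tassel.

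Values were FPKM, fragments scaled by transcript length and by library size, so levels of different genes can be set side by side. A gene was tested where at least 2 libraries reached 1 FPKM, which left 26792 genes in all and 26 of the 38 members. Changes are differences in log2(FPKM + 1) from limma, given ± SE, and a gene is said to have risen or fallen where its Benjamini-Hochberg adjusted p over all tested genes was under 0.05. Log2(FPKM + 1) understates the change of low genes. Between 20758 and 22708 genes reached 1 FPKM in a library, and replicates correlated at r = 0.9 to 0.941 across genes, which are not independent. The absolute depth is unknown. Relative depth, read from the steps between low FPKM values, averaged 0.589 at jointing, 0.541 at big flare and 0.864 at tasseling, with the deepest library at 1.0. Across all tested genes, 4 libraries were nearest to a library of another stage: both high jointing libraries, low jointing replicate 2 and low big flare replicate 1. Counts are therefore also given without 3 of them, keeping high jointing replicate 1 so that its group was not empty.

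The 12 untested members stayed under 1 FPKM in all 18 libraries. They were 6 TIFY genes, 4 of the genes named as jasmonate-induced, the lipoxygenase Zm00001d031449 with a highest value of 0.35 FPKM, and the jasmonate O-methyltransferase Zm00001d052827. The methyltransferase, whose enzyme type makes volatile methyl jasmonate, was listed at 0 in 16 of 18 libraries and reached 0.7 FPKM at most. It was too low to test.

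Among the lipoxygenases, the highest mean level over the 18 libraries was that of lox1 (Zm00001d042541), at 203 FPKM, followed by lox2 (Zm00001d042540) at 192 FPKM and the lipoxygenase Zm00001d053675 at 106 FPKM. Taken as a share of the summed lipoxygenase FPKM in each library, lox1 held a median of 25.4%, lox2 21.7% and Zm00001d053675 13.45%. The deposited KEGG annotation lists lox1 to lox6 as linoleate 9S-lipoxygenases and the other 5 lipoxygenase members only as lipoxygenase, so the annotation places the first 6 outside the jasmonate route. The genes lox1 and lox2 are neighbours on chromosome 3 in the reference gene table, and lox3 and lox4 are neighbours on chromosome 1, with 0 protein-coding genes between them in both cases. How the deposited values divide reads between such copies is uncertain.

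**Figure D1:**
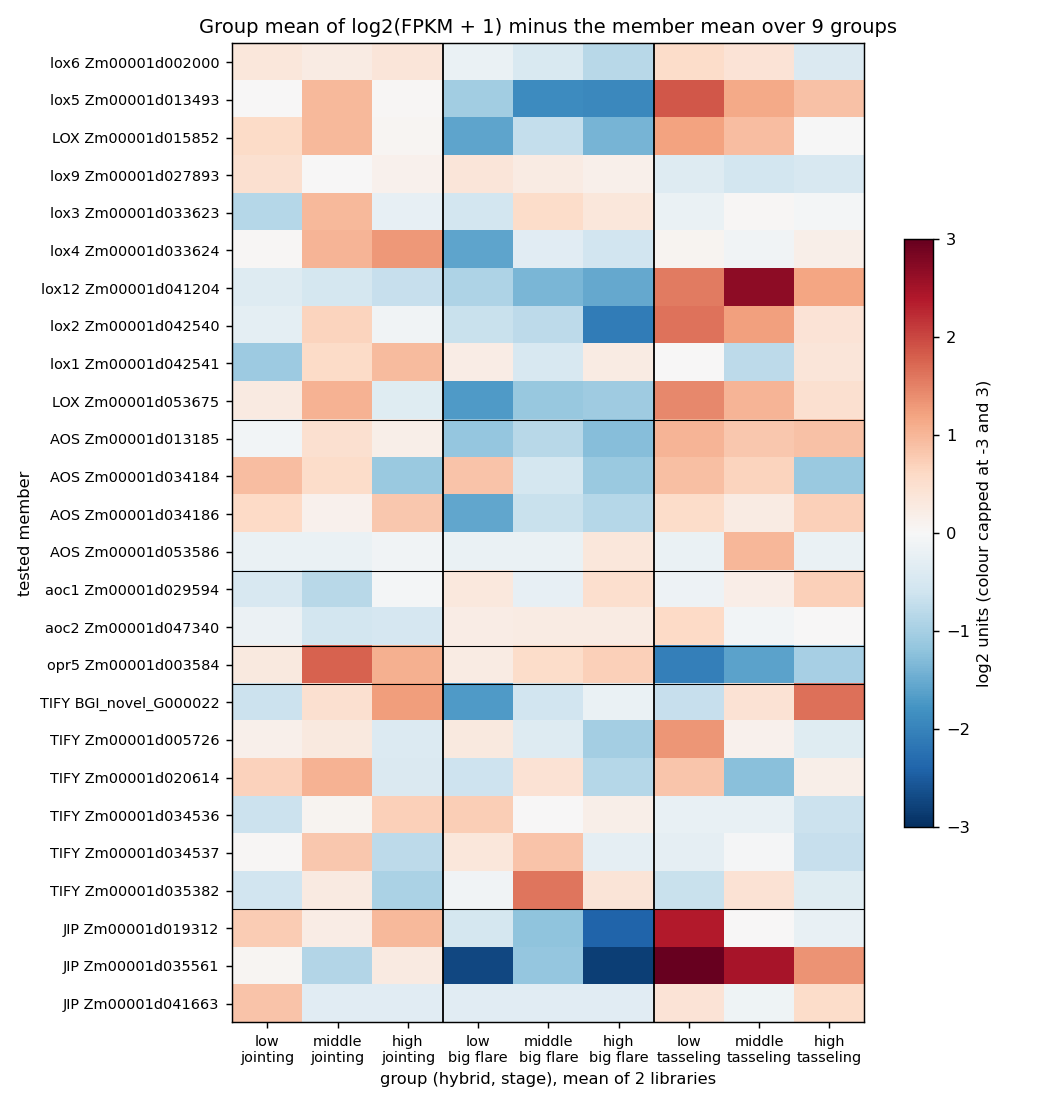
Group means of log2(FPKM + 1) for the 26 tested members (rows, ordered by pathway step and marked LOX, AOS, TIFY or, for genes named jasmonate-induced, JIP where they have no symbol) in the 9 groups (columns, by stage and then hybrid), each row centred on its own mean. Several lipoxygenase and allene oxide synthase rows are blue at big flare and red at tasseling, while opr5 is blue at tasseling.

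From jointing to big flare, 2 of 10 tested lipoxygenases and 2 of 4 allene oxide synthases fell, and both allene oxide cyclases rose. Of the 26 tested members, 3 rose and 5 fell, or 30.8%, against 12.4% of all tested genes, of which 7.29% rose and 5.06% fell. The median log2 change was −0.64 for the tested members and 0.07 for all tested genes. Fewer cells of a type and less RNA per cell cannot be told apart in whole stems. Without each of 6 libraries, left out one at a time, the calls over all tested genes fell as well. The count of 8 members moved by over 1.5 times. It was 2 without middle jointing replicate 2 or high jointing replicate 2, 3 without middle big flare replicate 1, 4 without low big flare replicate 2, and 5 without low jointing replicate 1 or high big flare replicate 1. Without the 3 libraries nearest to another stage it was 6, of which 4 were among the 8.

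Among the lipoxygenases, lox2 and lox4 fell. The level of lox2 had a lowest, median and highest value of 114, 141 and 334 FPKM at jointing and of 18.9, 84.7 and 91.8 FPKM at big flare. Every big flare library was thus below every jointing library, and the log2 change was −1.27 ± 0.30 (adjusted p = 0.0196, limma). The call was lost without low big flare replicate 2, middle jointing replicate 2, middle big flare replicate 1 or high jointing replicate 2, with adjusted p up to 0.0594, and without the 3 libraries nearest to another stage (adjusted p = 0.11). For lox4 (Zm00001d033624), values of 8.67, 15.0 and 56.4 FPKM at jointing stood against 2.43, 4.465 and 9.77 FPKM at big flare. The 56.4 FPKM belonged to high jointing replicate 1 alone, and the next highest was 20.6 FPKM. The change of −1.63 ± 0.34 (adjusted p = 0.0106, limma) passed in all 26 alternatives, and without that library the change was −1.24.

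Other lipoxygenases had medians that were lower at big flare without passing the test. Zm00001d053675 had a median of 76.5 FPKM at jointing and 39.7 FPKM at big flare (log2 change −1.62 ± 0.52, adjusted p = 0.0609, limma), and lox5 (Zm00001d013493) 37.6 against 7.71 FPKM (−1.96 ± 0.65, adjusted p = 0.0665, limma). In both genes the big flare replicates lay far apart. The 2 low big flare libraries held 64.5 and 7.79 FPKM of Zm00001d053675, and 31.9 and 4.31 FPKM of lox5. For lox1 the values overlapped widely, from 64.9 to 384 FPKM at jointing and from 89.4 to 347 FPKM at big flare.

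Allene oxide synthase commits the lipoxygenase product to jasmonate, and its 2 abundant members both fell. Zm00001d013185 ranged from 14.75 to 26.3 FPKM at jointing, with a median of 17.6 FPKM, and from 4.99 to 11.02 FPKM at big flare, with a median of 6.585 FPKM. No libraries of the 2 stages overlapped, and the fall of −1.29 ± 0.19 (adjusted p = 0.00209, limma) passed in all 26 alternatives. Zm00001d034186 had values of 14.7, 19.3 and 41.0 FPKM at jointing and 1.30, 7.76 and 12.1 FPKM at big flare, also without overlap. Its change was −1.53 ± 0.38 (adjusted p = 0.0222, limma), and it missed the threshold, with adjusted p up to 0.0677, without middle jointing replicate 2, middle big flare replicate 1, high jointing replicate 2 or high big flare replicate 1.

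The cyclase, which fixes the stereochemistry of the jasmonate precursor, moved the other way. The gene aoc1 (Zm00001d029594) had values of 60.5, 90.7 and 119 FPKM at jointing and 93.75, 137 and 186 FPKM at big flare, a change of 0.65 ± 0.18 (adjusted p = 0.0389, limma). For aoc2 (Zm00001d047340) the values were 23.1, 29.8 and 45.4 FPKM at jointing and 42.6, 49.7 and 55.9 FPKM at big flare, a change of 0.64 ± 0.17 (adjusted p = 0.0287, limma). Jointing and big flare overlapped in 1 low jointing library for aoc2, and more widely for aoc1. These calls depended on single libraries and on the scaling. With median-of-ratios scaling both were lost, and with quantile normalization only aoc1. Of 26 alternatives 12 kept aoc1 and 17 kept aoc2, and most losses of both came with a single library left out.

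Of the TIFY and jasmonate-induced genes, Zm00001d035382 rose from a median of 0.715 FPKM at jointing to 2.29 FPKM at big flare (1.05 ± 0.29, adjusted p = 0.0365, limma), a low level that kept its call in 17 of 25 alternatives. The jasmonate-induced gene Zm00001d019312 fell from a median of 12.1 to 2.15 FPKM (−2.04 ± 0.60, adjusted p = 0.0438, limma). That call held in 8 of 26 alternatives.

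**Figure D2:**
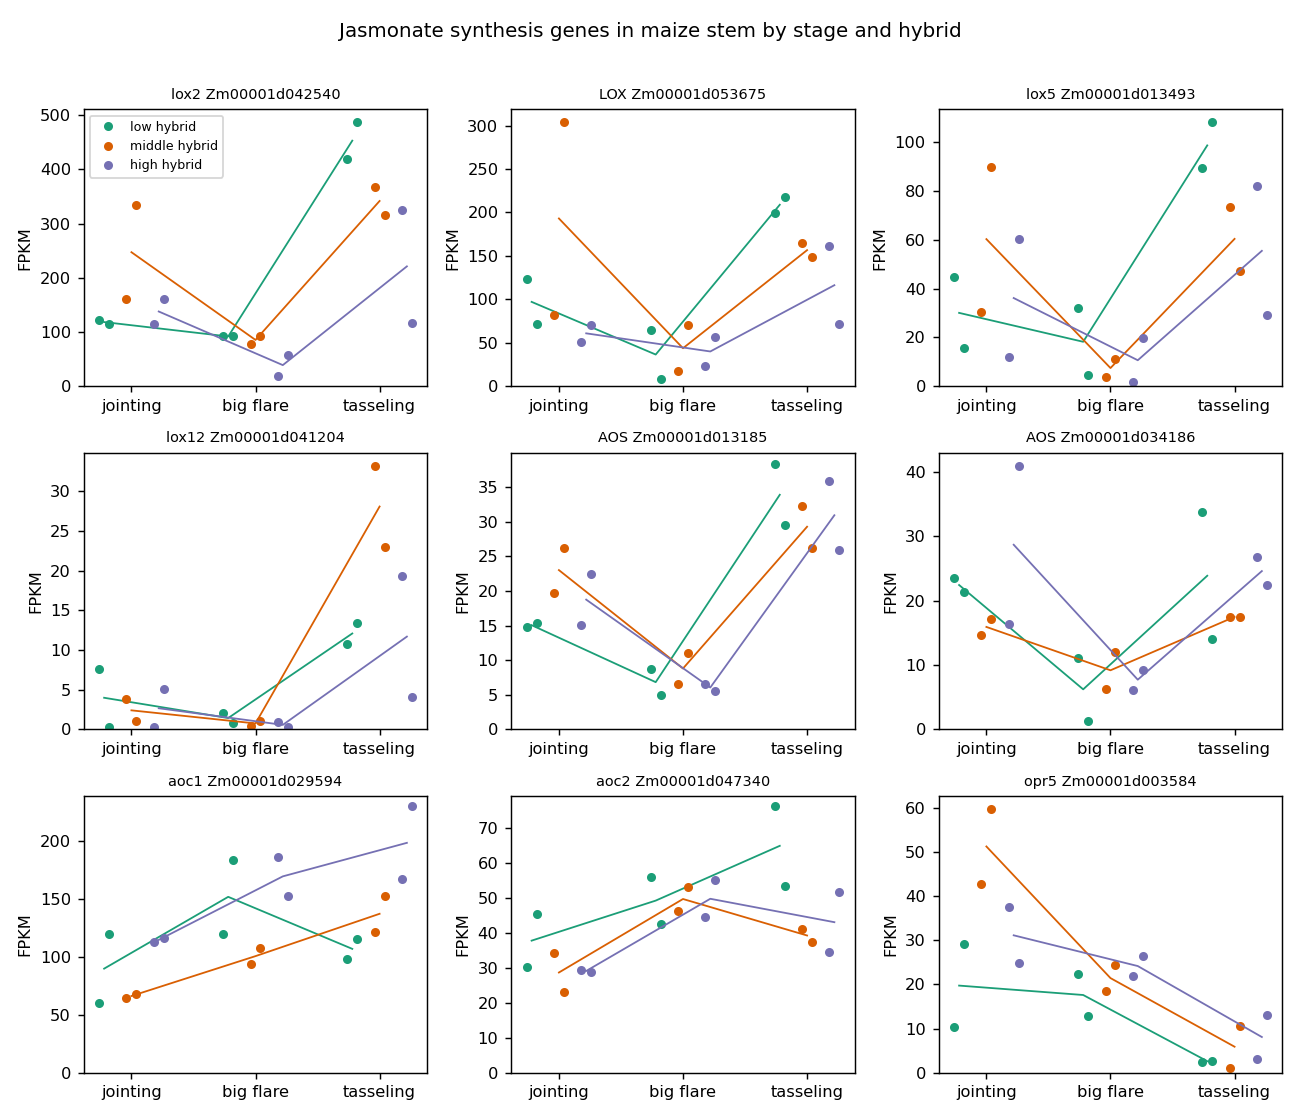
FPKM (vertical axes, linear, from 0) of 9 lipoxygenase, synthase, cyclase and reductase members in each of the 18 libraries, by stage (horizontal axes) and hybrid (colours). Lines run through the means of 2 libraries. KEGG lists lox2 and lox5 as 9-lipoxygenases, outside the jasmonate route. It gives lox12 and Zm00001d053675 no class, so their place in the route is not settled. The gene opr5 is not a reductase known to form jasmonate. All 6 tasseling libraries of lox2, lox12 and Zm00001d013185 lie above all 6 big flare libraries, whereas opr5 is lowest at tasseling.

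From big flare to tasseling, 4 of 10 tested lipoxygenases and 2 of 4 allene oxide synthases rose. Of the 26 tested members, 9 rose and 4 fell, or 50%, and of all tested genes 41.6% changed, 22.4% upward and 19.2% downward. The median log2 change was 0.64 for the tested members and 0.01 for all tested genes. Leaving out single libraries gave 11 to 16 calls, and leaving out the 3 libraries nearest to another stage gave 16, including all 13. With relative depth as a covariate, an alternative added after the data were seen, 8 members were called. Over all tested genes this covariate lowered the calls from 11146 to 7370.

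The rise of lox2 was from 18.9, 84.7 and 91.8 FPKM at big flare to 116, 346 and 487 FPKM at tasseling. The stages did not overlap, and the change was 2.27 ± 0.30 (adjusted p = 0.000134, limma). The class of lox12 (Zm00001d041204), a lipoxygenase known in maize from the mesocotyl, is not given by KEGG. Its big flare values of 0.24, 0.83 and 2.08 FPKM became 4.06, 16.4 and 33.2 FPKM. That was a change of 3.09 ± 0.53 (adjusted p = 0.000639, limma), again without overlap. The largest tasseling values of lox12, 33.2 and 23.0 FPKM, were those of the middle hybrid.

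For lox5 the median rose from 7.71 to 77.8 FPKM (2.91 ± 0.65, adjusted p = 0.00329, limma), and the stages overlapped only through low big flare replicate 1 at 31.9 FPKM and high tasseling replicate 2 at 29.0 FPKM. Zm00001d053675 rose from a median of 39.7 to 163 FPKM (2.27 ± 0.52, adjusted p = 0.00401, limma). Its highest big flare library, at 70.1 FPKM, lay just under its lowest tasseling library, at 70.8 FPKM, and the call was lost with relative depth as a covariate (adjusted p = 0.0597). The calls of lox2, lox5 and lox12 passed in all 26 alternatives.

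A single lipoxygenase fell. The level of lox9 (Zm00001d027893) had medians of 30.2 FPKM at jointing and 30.3 FPKM at big flare, and at tasseling it ranged from 14.5 to 20.7 FPKM with a median of 17.6 FPKM. All tasseling libraries were below all libraries of both earlier stages. The log2 change was −0.72 ± 0.14 (adjusted p = 0.00135, limma), and it passed in all 26 alternatives.

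Both abundant allene oxide synthases rose. Zm00001d013185 went from values of 4.99, 6.585 and 11.02 FPKM to 26.0, 30.9 and 38.3 FPKM (2.00 ± 0.19, adjusted p = 2.22e-05, limma). Zm00001d034186 went from 1.30, 7.76 and 12.1 FPKM to 14.0, 19.95 and 33.8 FPKM (1.54 ± 0.38, adjusted p = 0.00613, limma). The 2 stages were separate in both genes, and both calls passed in all 26 alternatives. The cyclases passed no test here, with changes of 0.06 ± 0.18 for aoc1 and −0.06 ± 0.17 for aoc2.

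The reductase opr5 (Zm00001d003584) fell. It had values of 12.8, 22.2 and 26.5 FPKM at big flare and 1.16, 2.945 and 13.05 FPKM at tasseling (−2.06 ± 0.42, adjusted p = 0.00193, limma). The 2 highest tasseling values, 13.05 and 10.7 FPKM, came from replicate 2 of the high and middle hybrids, while replicate 1 of those hybrids held 3.16 and 1.16 FPKM. In maize the reductases known to form jasmonate are opr7 and opr8, not opr5.

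Of the TIFY members, the TIFY 6A-like gene Zm00001d005726 rose by 0.73 ± 0.20 (adjusted p = 0.0107, limma), from a median of 15.5 to 22.5 FPKM, and lost its call with relative depth as a covariate (adjusted p = 0.187). The low TIFY genes Zm00001d034537 and Zm00001d035382 fell by 0.63 and 0.83 on the log2 scale, from medians of 1.88 and 2.29 FPKM to 0.895 and 0.935 FPKM (adjusted p = 0.032 and 0.0387, limma). Both share the same best protein match, so reads could be divided between them, and each call held in 14 of 25 alternatives. KEGG lists Zm00001d034537 under other protein families, not as a JAZ protein.

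The jasmonate-induced protein gene Zm00001d035561 made the largest change of any member. Its values of 2.30, 36.4 and 75.6 FPKM at big flare became 138, 564 and 1120.3 FPKM at tasseling (4.67 ± 0.76, adjusted p = 0.000455, limma). The 2 stages did not overlap, and the low hybrid held the 2 highest libraries, 1120.3 and 960.5 FPKM. The annotation gives this gene and Zm00001d019312 a KEGG entry as SIAH1-type E3 ubiquitin ligases, so their descriptive name was not settled by the files. Zm00001d019312 rose by 2.10 ± 0.60 (adjusted p = 0.0133, limma), with 71.5 and 30.8 FPKM in the low tasseling libraries and 4.75 to 14.2 FPKM in the other 4, and lost its call with relative depth as a covariate (adjusted p = 0.0631).

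**Figure D3:**
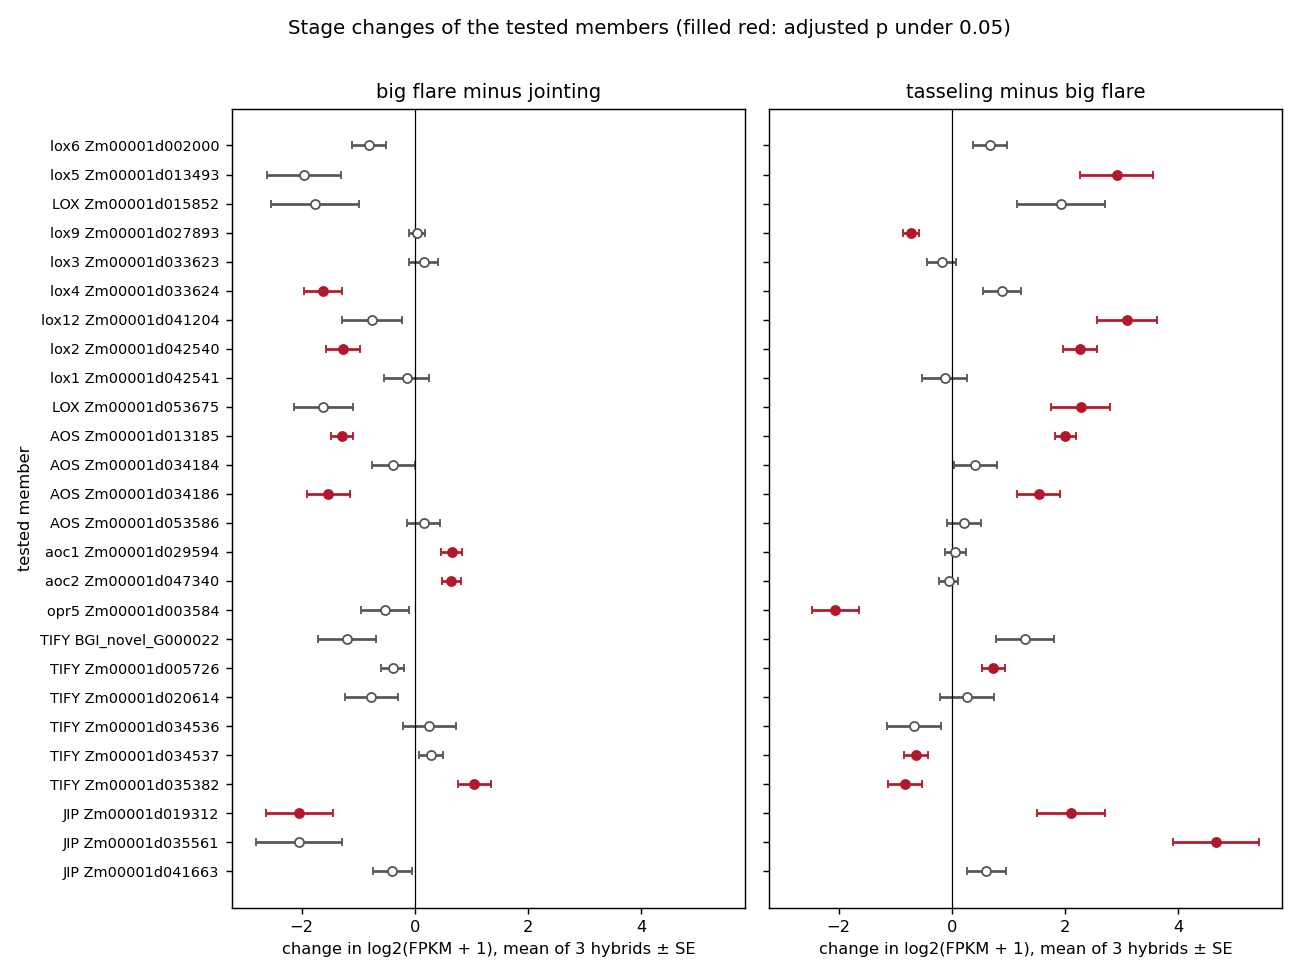
Change in log2(FPKM + 1) of each tested member from jointing to big flare (left) and from big flare to tasseling (right), as the mean over 3 hybrids with its SE as horizontal bars. Filled red points mark adjusted p under 0.05, which are 8 members on the left and 13 on the right, and both panels share the big flare libraries.

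Tasseling was also set directly against jointing. Here 6 members rose and 2 fell, or 30.8%, a share near the 29.9% of all tested genes (18.8% upward and 11.1% downward), and the median change was 0.13 for the tested members and 0.08 for all tested genes. With relative depth as a covariate the count was 4, and the calls over all tested genes fell from 8015 to 5028. The lipoxygenase lox12 rose from a median of 2.40 to 16.4 FPKM (2.34 ± 0.53, adjusted p = 0.00605, limma) and the synthase Zm00001d013185 from 17.6 to 30.9 FPKM (0.72 ± 0.19, adjusted p = 0.0127, limma). Both were called in all 26 alternatives.

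The gene lox2 rose by 1.00 ± 0.30 (adjusted p = 0.0254, limma), with a part of 1.93 in the low hybrid, 0.56 in the middle and 0.52 in the high. It kept its call in 18 of 26 alternatives. Zm00001d035561 rose by 2.61 ± 0.76 (adjusted p = 0.0212, limma; 21 of 26 alternatives). The cyclases aoc1 and aoc2 rose by 0.71 ± 0.18 and 0.59 ± 0.17 (adjusted p = 0.0126 and 0.0206, limma). Both lost the call under median-of-ratios scaling, quantile normalization and the depth covariate. For aoc1 these were the only losses, and it was called in 23 of 26 alternatives. For aoc2, called in 18, the other losses each came with a single library left out. The reductase opr5 fell by 2.59 on the log2 scale, from a median of 33.3 to 2.945 FPKM (adjusted p = 0.000955, limma), and lox9 by 0.68 (adjusted p = 0.00344, limma), each in all 26 alternatives. The jointing level of opr5 was itself uneven, with 10.4 and 29.1 FPKM in the low hybrid and 24.8 to 59.7 FPKM in the other 2.

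Summed levels of tissue marker genes were also set side by side by stage, while stem composition itself was not measured. The summed FPKM of 43 secondary wall and xylem marker genes ran from 2066 to 5434 at jointing, from 581 to 2762 at big flare and from 1857 to 12454 at tasseling. Of its 33 tested members, 16 rose and 3 fell from big flare to tasseling, or 57.6%, against 41.6% of all tested genes. In the same step 3 rose and 4 fell of 33 tested green tissue markers, or 21.2%. Of 26 tested floral markers 5 rose and 8 fell, or 50%. For the 34 green tissue markers the sums spanned 5032 to 15456 at jointing, 3968 to 9756 at big flare and 4889 to 9270.01 at tasseling, and for the 48 floral markers 399.5 to 535, 774 to 1124, and 463 to 741. In each of these 3 lists, 0 genes were at 0 in all libraries. The part of tissue composition and of the deeper tasseling libraries in the stage changes was not tested.

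In 7 of 9 groups the replicates differed more in the median tested member than in the median of all tested genes. The median absolute difference between replicates, in log2 units, was 0.785 for the tested members against 0.407 for all tested genes in low big flare, 0.742 against 0.38 in middle big flare and 0.876 against 0.328 in high big flare. In the 3 tasseling groups the members' medians were 0.294, 0.338 and 0.531, against 0.332, 0.349 and 0.432 for all tested genes. In each hybrid the members' median difference was largest at big flare.

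Several members differed between replicates in the same direction. Zm00001d053675 was taken as the gene of reference, chosen after its values were seen. The replicate in which it was higher was also the higher one for lox2 and for lox5 in 9 of 9 groups. In low big flare, however, the lox2 replicates were nearly level, at 91.38 and 91.3 FPKM. For the synthase Zm00001d034186 the same replicate was higher in 8 of 9. For lox12, Zm00001d035561 and the lipoxygenase Zm00001d015852 this held in 7 groups, and for lox1 and Zm00001d013185 in 6. It held in 5 for lox3 and opr5, in 4 for lox4, lox6, aoc1 and aoc2, and in 3 for lox9. The summed green tissue markers were higher in the other replicate in 8 of 9 groups, the secondary wall markers in 5, and the wound-response and floral lists in 4 each. In high jointing, for example, replicate 2 held 60.5 FPKM of lox5 and 41.0 FPKM of Zm00001d034186, and replicate 1 held 11.7 and 16.4 FPKM. The part of tissue composition in these replicate differences was not tested.

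**Figure D4:**
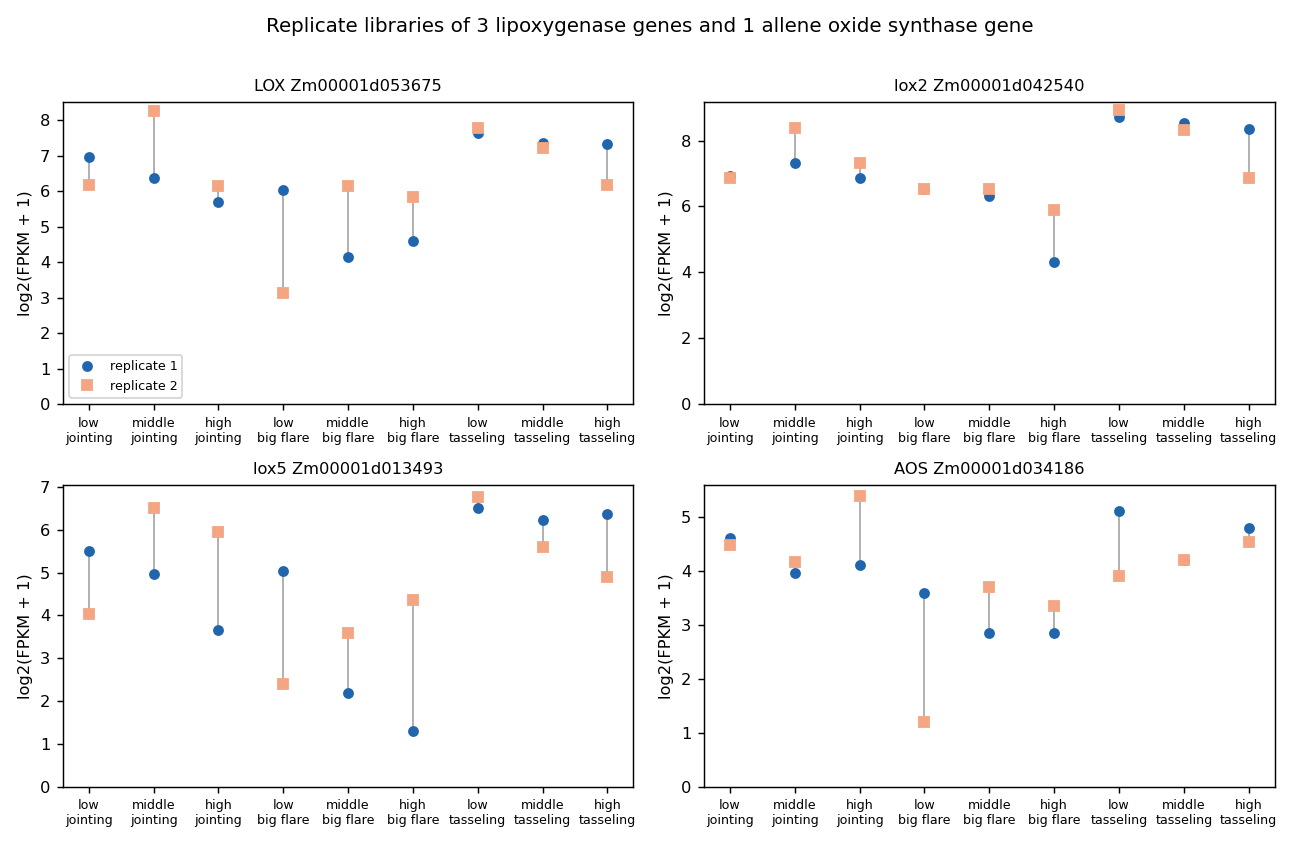
Levels as log2(FPKM + 1) (vertical axes, from 0) of 3 lipoxygenase genes and 1 allene oxide synthase gene in replicate 1 (blue circles) and replicate 2 (orange squares) of the 9 groups, with grey lines joining the pair. The same replicate is higher for all 3 lipoxygenase genes in each group, though lox2 is nearly level in low big flare. The widest gap, 1.46 against 19.6 FPKM, is in lox5 at high big flare.

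Between hybrids, few members differed, and the shares were near those of all genes. High against low gave 1 member that was higher and 2 that were lower in the high hybrid, or 11.5%, against 9.21% of all tested genes (3.58% higher and 5.63% lower). Middle against low gave 2 higher and 0 lower, or 7.69%, against 6.93% (2.62% higher and 4.31% lower). In high against middle 0 were higher and 1 was lower, or 3.85%, against 4.44% (2.37% higher and 2.07% lower). The median changes of the tested members were −0.31, 0.05 and −0.31 log2 units, against −0.07, −0.04 and −0.03 for all tested genes.

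The allene oxide synthase Zm00001d034184 was listed at 0 in all 6 libraries of the high hybrid. In the low hybrid it ranged from 1.32 to 6.22 FPKM with a median of 2.99 FPKM, and in the middle hybrid from 0 to 4.95 FPKM with a median of 1.755 FPKM. High and low did not overlap (adjusted p = 0.00402, limma), and the call passed in all 26 alternatives. The contrast of high with middle did not pass (adjusted p = 0.0683, limma). Zm00001d034186, which carries the same protein name, was present in all 18 libraries, and reads could be divided between these genes. The other 3 allene oxide synthase members passed no comparison between hybrids. Whether a hybrid listed at 0, here or below, lacks the RNA or has reads unlike the B73 reference genome was not tested.

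The TIFY 6A-like gene Zm00001d005726, a JAZ gene by KEGG, was lower in the high hybrid. Its values were 8.08, 12.2 and 20.9 FPKM in the high hybrid, 14.8, 22.5 and 25.75 FPKM in the middle and 18.3, 31.9 and 55.4 FPKM in the low. High and low overlapped through the low libraries of 18.3 and 18.8 FPKM, and the change over the 3 stages was −1.20 ± 0.20 (adjusted p = 0.0017, limma), called in all 26 alternatives. Within stages it was −0.57 at jointing, −1.33 at big flare and −1.71 at tasseling. The middle hybrid, at −0.58 ± 0.20 against low, was not called (adjusted p = 0.115, limma).

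A second JAZ gene, listed as BGI_novel_G000022 and matched to a tify/CCT protein, was higher in the high hybrid. It had a mean of 22.9 ± 11.6 FPKM (SD, n = 6 libraries) in the high and 5.72 ± 3.53 FPKM in the low hybrid, with 12.1 ± 6.80 FPKM in the middle. The change was 1.91 ± 0.51 (adjusted p = 0.0348, limma), and it was called in 14 of 26 alternatives. In the high hybrid, big flare replicate 2 held 4.19 FPKM, within the range of the low hybrid. Another TIFY gene, Zm00001d020614, passed no comparison, with a mean of 11.7 FPKM over all libraries. It had the lowest unadjusted interaction p of the members, 0.0697.

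Middle against low turned on lox3 (Zm00001d033623), a 9-lipoxygenase gene known in maize for its role in fungal and nematode interactions. Its values were 19.8, 29.7 and 39.5 FPKM in the middle and 6.94, 14.2 and 21.1 FPKM in the low hybrid, a change of 1.06 ± 0.26 (adjusted p = 0.0256, limma). By stage the difference was 1.83 at jointing, 1.10 at big flare and 0.24 at tasseling, and the interaction test did not call this gene. The call was lost in 9 of 26 alternatives, 8 of them without a single library, with adjusted p up to 0.0774. Zm00001d035382 was also higher in the middle hybrid, with a median of 2.23 against 0.675 FPKM (1.22 ± 0.29, adjusted p = 0.0245, limma; called in 17 of 25 alternatives). High against middle turned on Zm00001d034537, at a median of 0.43 FPKM in the high and 2.92 FPKM in the middle hybrid (−1.13 ± 0.22, adjusted p = 0.00801, limma; called in all 25 alternatives that tested it).

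These small counts moved with single libraries, and so could the members behind them. Without low jointing replicate 2, middle against low kept neither lox3 nor Zm00001d035382, so the member counted there was another. The count of 2 for middle against low became 1 without low jointing replicate 2, either middle big flare replicate, middle jointing replicate 2 or middle tasseling replicate 2. It became 0 without low tasseling replicate 1, middle jointing replicate 1 or middle tasseling replicate 1, and 0 without the 3 libraries nearest to another stage. The count of 1 for high against middle became 2 without high big flare replicate 2, high tasseling replicate 1 or middle jointing replicate 1, and 3 without either low jointing replicate. Without the 3 libraries nearest to another stage, high against middle gave 2 members and high against low 4.

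Stage changes that differed between hybrids were sought in a hybrid-by-stage interaction test. It called 0 of the 26 members by limma, with 0 at an unadjusted p under 0.05, against 0.056% of all tested genes. Each group had 2 libraries.

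**Figure D5:**
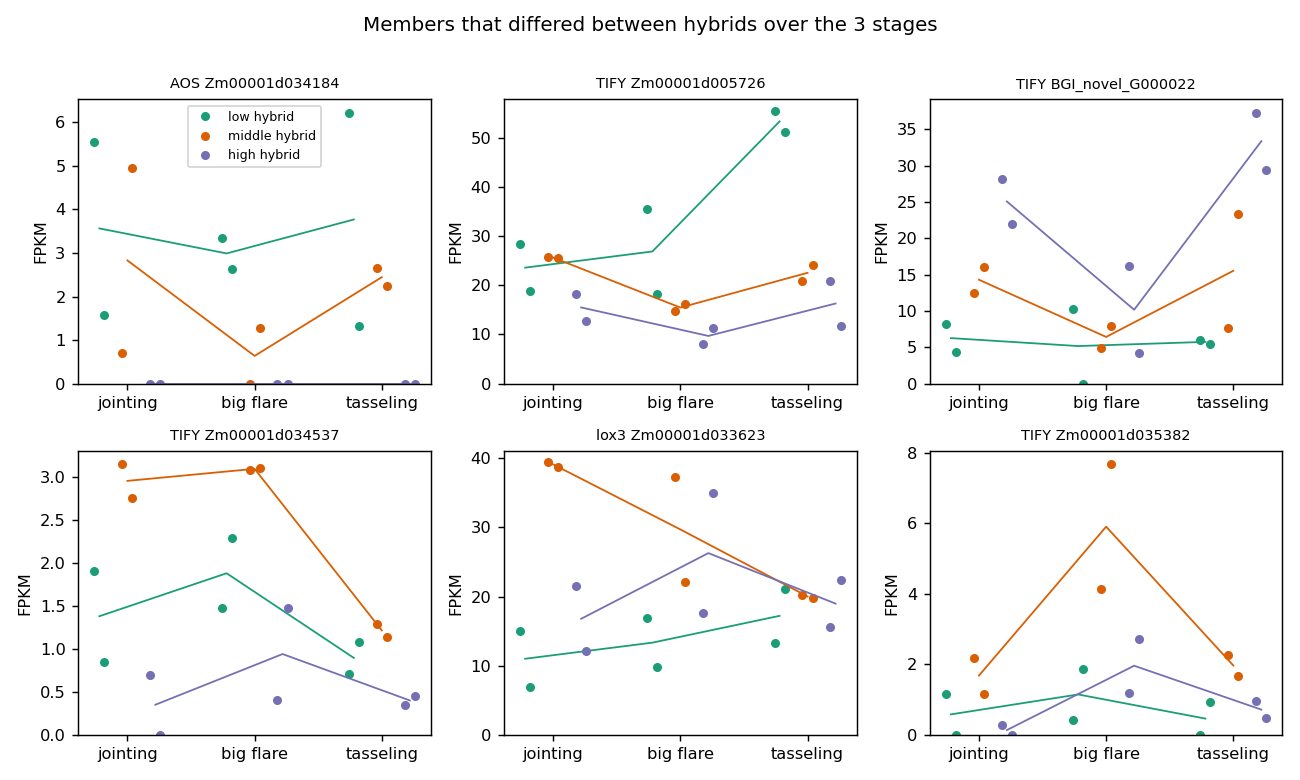
FPKM (vertical axes, linear, from 0) of the 6 members that passed a comparison between hybrids, in each of the 18 libraries by stage and hybrid, with lines through the means of 2 libraries. Zm00001d034184 sits at 0 in all 6 high hybrid libraries, and Zm00001d005726 is highest in the low hybrid at tasseling, at 55.4 and 51.2 FPKM.

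The descriptions used to choose the members miss pathway genes that carry another name. By their KEGG entries, 43 further genes belong to the same steps or to JAR1 and COI1, and 37 were tested. From jointing to big flare 4 of them rose and 5 fell, from big flare to tasseling 5 rose and 7 fell, and from jointing to tasseling 3 rose and 4 fell. These were 24.3%, 32.4% and 18.9% of the 37, against 12.4%, 41.6% and 29.9% of all tested genes. The tassel seed gene ts1 (Zm00001d003533), the 13-lipoxygenase required for tassel sex determination, rose from a median of 5.415 FPKM at big flare to 8.14 FPKM at tasseling (0.62 ± 0.22, adjusted p = 0.0422, limma).

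The most abundant allene oxide synthase by KEGG was Zm00001d048021, described only as unknown. Its values were 40.8, 120.0 and 164 FPKM at jointing, 16.5, 34.3 and 68.7 FPKM at big flare and 121, 353 and 469 FPKM at tasseling. It fell by 1.64 on the log2 scale into big flare (adjusted p = 0.0209, limma) and rose by 3.20 ± 0.40 into tasseling (adjusted p = 8.9e-05, limma), without overlap between the last 2 stages. It was also higher in the same replicate as Zm00001d053675 in 9 of 9 groups.

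Among the reductases, opr6 (Zm00001d040842) had the reverse course. Its values were 3.52, 17.1 and 28.5 FPKM at jointing, 36.8, 107 and 167 FPKM at big flare and 0.9, 7.345 and 12.5 FPKM at tasseling, with big flare apart from both other stages. The changes were 2.58 ± 0.52 and −3.87 ± 0.52 (adjusted p = 0.00943 and 0.00014, limma). The jasmonate-forming opr8 (Zm00001d050107) rose by 0.51 ± 0.14 into big flare (adjusted p = 0.035, limma), and opr7 (Zm00001d032049), with medians of 25.3, 33.3 and 33.3 FPKM over the stages, passed no comparison.

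The conjugating step peaked at big flare in 1 gene. Zm00001d008957, a JAR1 gene by KEGG, had medians of 6.76, 45.9 and 5.54 FPKM at jointing, big flare and tasseling, and changed by 1.98 ± 0.40 and then by −2.20 ± 0.40 (adjusted p = 0.00909 and 0.000877, limma). From big flare to tasseling 0 of 4 tested JAR1 genes rose and 3 fell, where 22.4% of all tested genes rose and 19.2% fell. Among 18 tested JAZ genes known only by KEGG, 0 rose and 4 fell into big flare, or 22.2%, where 5.06% of all tested genes fell. Into tasseling 3 rose and 0 fell, or 16.7%, where 22.4% of all tested genes rose. The 3 included Zm00001d027901, with medians of 29.8, 6.38 and 23.6 FPKM over the stages.

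Genes named for perception and signalling fell into tasseling in part. In a list of COI1, MYC, NINJA and TOPLESS genes, 0 rose and 6 fell of 10 tested from big flare to tasseling, with a median change of −0.55, where 19.2% of all tested genes fell and the median was 0.01. COI1 (Zm00001d010082) rose by 0.43 ± 0.13 into big flare and fell by 0.46 on the log2 scale into tasseling (adjusted p = 0.0475 and 0.013, limma), from medians of 31.7 to 46.9 to 31.4 FPKM. NINJA is a corepressor adaptor of JAZ proteins, but a family name alone does not give a gene that role. The NINJA-family 6 gene Zm00001d047290 fell from a median of 49.5 FPKM at jointing to 19.5 FPKM at big flare and 5.46 FPKM at tasseling. Its change from first to last was −2.94 ± 0.18 (adjusted p = 9.52e-06, limma). A related gene, Zm00001d029529, fell by 1.08 on the log2 scale over the same interval (adjusted p = 0.000636, limma).

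Omega-3 desaturases and phospholipases A1 provide the fatty acid precursor. Of 10 tested genes, 4 rose and 0 fell from big flare to tasseling, a share of 40% near the 41.6% of all tested genes, and from jointing to tasseling 3 rose and 1 fell, also 40%, against 29.9%. The desaturase gene Zm00001d044605 rose from a mean of 1.05 ± 0.98 FPKM at jointing to 5.68 ± 3.99 FPKM at tasseling (SD, n = 6 libraries; 1.64 ± 0.32, adjusted p = 0.0028, limma), and Zm00001d007228 by 1.02 ± 0.25 (adjusted p = 0.0101, limma). Among 6 tested turnover genes, which inactivate or release the conjugate, 2 rose into big flare and 2 fell into tasseling, or 33.3% each. Of all tested genes, 7.29% rose into big flare and 19.2% fell into tasseling. Of 17 tested wound and defence genes, 5 rose and 2 fell from big flare to tasseling, a share of 41.2% close to the 41.6% of all tested genes. The cysteine proteinase inhibitor Zm00001d012561 fell by 1.01 on the log2 scale from jointing to tasseling (adjusted p = 0.00808, limma). The 1 tested gene of other oxylipin branches passed no comparison.

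Hybrids also differed in JAZ genes found by KEGG. Of 18 tested, 4 rose and 0 fell in high against low, and the same counts held for middle against low. This was 22.2% in both, against 9.21% and 6.93% of all tested genes. Over all 37 tested genes added by KEGG it was 10.8% in both comparisons. In high against middle 1 of the 18 was higher, or 5.56%, against 4.44% of all tested genes. Zm00001d033972 was between 14.4 and 34.6 FPKM in the high hybrid, at most 2.74 FPKM in the middle and at most 0.16 FPKM in the low (high against low adjusted p = 2.58e-07, limma). It shares its protein match with Zm00001d026477, whose means were 124 FPKM in the high and 176 FPKM in the low hybrid without a call, and reads of the 2 could be divided between them. Zm00001d032009 had medians of 0, 16.1 and 6.705 FPKM in the low, middle and high hybrids, and Zm00001d019692 was listed at 0 in all 6 low libraries.

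Peroxisomal beta-oxidation shortens the side chain of the precursor and of other fatty acids. Of its 16 tested genes, 4 rose and 3 fell in high against low, or 43.8%, against 9.21% of all tested genes. In the same comparison 0 of 10 tested precursor genes and 0 of 17 tested wound and defence genes were called. The acyl-CoA oxidase Zm00001d053092 was at 2.36 ± 0.75 FPKM in the high and 19.2 ± 7.44 FPKM in the low hybrid (SD, n = 6 libraries; −2.53 ± 0.24, adjusted p = 1.4e-05, limma). Zm00001d050096, of the same family, was listed at 0 in all 6 low libraries and ranged from 3.07 to 9.40 FPKM in the high. The TOPLESS-related gene Zm00001d008338 and the turnover gene Zm00001d012304, a cytochrome P450 of family 94, were higher in the high hybrid by 0.75 ± 0.21 and 0.80 ± 0.23 (adjusted p = 0.0388 and 0.0483, limma).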

How the data were processed

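Poly-A RNA of 18 maize stem libraries was sequenced as paired ends, per the labels' protocols. The authors deposited FPKM values, and the submitters' processing notes name TopHat2, Cufflinks 2.2.1, Cuffdiff, DESeq 1.28.0 and the build B73 RefGen_v4, with no role or order. FPKM divides by library size, so abundant genes can shift all others. Members, lists and tests were chosen with earlier results of these data known. Lists by KEGG entry were added once gene names had been read but no test run, and 2 genes whose names matched by accident were taken out. Tests used limma 3.58.1 (R 4.3.3) on log2(FPKM + 1) with 9 group means, 9 residual degrees of freedom and a variance trend, two-sided, adjusted over 26792 genes, and the procedure was tested on simulated data. Hybrids were averaged over 3 stages and stages over 3 hybrids. Relative depth came from 5480 genes, and 92.2% of 153 library pairs fitted within 0.05 log2 units. Named were the members past the threshold (of 13, the 6 largest changes each way), the 3 most abundant of each step, and of each pathway list the 2 largest called changes in high against low and in tasseling against jointing; other named genes were chosen after their values were seen. Symbols matched for 23 members, through a gene table for Zm-B73-REFERENCE-NAM-5.0, which is not the authors' build, so no coordinates or sequences are given.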

Additional observations from a re-analysis of the deposited data

How the results depend on the processing

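Each count was recomputed under 26 alternatives. The 2 alternatives relative depth as a covariate and leaving out the 3 libraries nearest to another stage were added after the data were seen. Leaving out 1 library at a time, where the lone library of a group is assumed to vary like the others, gave 2 to 12 members for big flare against jointing, 2 to 4 for high against low, 1 to 3 for high against middle, 0 to 2 for middle against low, 11 to 16 for tasseling against big flare, 5 to 9 for tasseling against jointing and 0 for the interaction.

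The 1 member of high against middle became 0 with a filter of FPKM 5, which leaves out Zm00001d034537, and 2 with log2(FPKM + 0.1), median-of-ratios scaling, quantile normalization or the 3 libraries left out. The 2 members of middle against low became 1 with log2(FPKM + 0.1), 1 with the FPKM 5 filter, which leaves out Zm00001d035382, and 0 with the 3 libraries left out. With relative depth as a covariate, tasseling against big flare gave 8 and tasseling against jointing 4. The calls over all tested genes fell too, from 11146 to 7370 and from 8015 to 5028. The cause was not tested where none is named. No change that had passed the threshold reversed under any alternative.

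Replicate numbers do not pair the libraries. Over 36 pairs of groups, the correlation of deviations between same-numbered libraries ran from −0.43 to 0.293, and 8 exceeded 0.1. A replicate block gave 2 members in high against middle in place of 1, and left the other 6 counts as they were. Mean relative depth was lowest at big flare, and without counts no interval can be put on a low value.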
